A study of Mus musculus with 6 samples.

Results

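The 10 genes described here are Bmp4, which encodes the secreted ligand bone morphogenetic protein 4 (BMP4), the receptor genes Bmpr1a and Bmpr2, the signal-carrying Smad genes Smad1 and Smad5, the inhibitory Smad genes Smad6 and Smad7, and the target genes Id1, Id2 and Id3. They were taken by name, and every probe set that the array's annotation assigned to one of them was used, which gave 24 probe sets of 45101 on the array and 10 of 18194 named genes. In the KIAA1718 group, R1 cells, an established line of mouse embryonic stem cells, carried a lentivirus with the first short hairpin RNA (shRNA) against KIAA1718. Control R1 cells carried a lentivirus with an shRNA against luciferase, a protein that mouse cells lack. Cells of both groups were sorted for GFP, and each group was measured on 3 Affymetrix mouse expression arrays. A single shRNA represents KIAA1718, the protein of the histone demethylase gene Kdm7a, and the groups were infected with different viruses. Effects of the hairpin's sequence, of the infection and of targeting KIAA1718 therefore cannot be told apart. Whether the 3 samples of a group were grown or infected separately is not stated in the labels, and p-values therefore reflect only sample-to-sample spread, some or all of which may be technical.

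BMP4 binds a pair of type I and type II receptors, of which Bmpr1a encodes a type I and Bmpr2 a type II chain. The active type I receptor phosphorylates SMAD1 and SMAD5, which enter the nucleus with SMAD4 and switch on target genes. Among these are the Id genes, whose products bind and hold back basic helix-loop-helix transcription factors, and Smad6 and Smad7, whose products block the receptors in negative feedback. In mouse embryonic stem cells, BMP4 and the cytokine LIF together support self-renewal, and induction of Id genes is the best known part of the BMP4 contribution.

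RefSeq promoter sequences on GRCm38.p6, covering 250 bases before and 50 after the start of the gene, were examined for 8 of the 10 genes. Those of Smad7 and Id1 were not examined, so nothing is said here about motifs in them. Of the 8, the sequences of Bmp4, of the feedback gene Smad6 and of the target genes Id2 and Id3 are shown. Bmp4 is the gene with the clearest difference between the groups, and the others are genes that BMP signalling is known to act on. Each reads 5′ to 3′ on the strand of its gene, and capitals mark matches on either strand to 3 motifs: GGCGCC, the core of a GC-rich BMP response element, CAGAC or its complement GTCTG, a Smad-binding element, and the palindrome GTCTAGAC, an extended Smad-binding element that contains neither of the other two.
Bmp4 promoter, chr14:46390620-46390919, minus strand: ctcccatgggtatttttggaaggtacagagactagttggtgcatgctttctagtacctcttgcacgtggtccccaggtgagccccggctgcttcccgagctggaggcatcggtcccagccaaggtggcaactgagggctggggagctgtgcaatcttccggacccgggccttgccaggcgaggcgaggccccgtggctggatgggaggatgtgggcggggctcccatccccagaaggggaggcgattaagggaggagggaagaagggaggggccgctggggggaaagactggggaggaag
Smad6 promoter, chr9:64022010-64022309, minus strand: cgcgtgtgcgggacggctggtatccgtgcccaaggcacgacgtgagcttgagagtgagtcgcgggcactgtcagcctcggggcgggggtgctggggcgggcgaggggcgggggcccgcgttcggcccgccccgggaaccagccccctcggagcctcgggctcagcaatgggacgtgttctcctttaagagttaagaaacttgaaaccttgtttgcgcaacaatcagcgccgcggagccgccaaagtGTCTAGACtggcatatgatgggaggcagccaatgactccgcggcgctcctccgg
Id2 promoter, chr12:25096043-25096342, minus strand: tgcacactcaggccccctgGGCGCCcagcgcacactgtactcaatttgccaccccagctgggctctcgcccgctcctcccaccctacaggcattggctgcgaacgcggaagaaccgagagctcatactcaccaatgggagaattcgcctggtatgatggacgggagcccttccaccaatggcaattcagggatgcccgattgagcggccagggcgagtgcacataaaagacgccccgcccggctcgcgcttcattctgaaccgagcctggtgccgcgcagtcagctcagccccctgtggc
Id3 promoter, chr4:136143572-136143871, plus strand: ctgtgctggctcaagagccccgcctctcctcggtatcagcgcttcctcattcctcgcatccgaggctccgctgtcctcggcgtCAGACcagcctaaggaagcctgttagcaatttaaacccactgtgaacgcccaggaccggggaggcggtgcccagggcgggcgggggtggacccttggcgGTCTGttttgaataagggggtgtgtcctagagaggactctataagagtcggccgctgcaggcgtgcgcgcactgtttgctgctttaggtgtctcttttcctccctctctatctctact
GGCGCC was present in 11.9% of all 32851 promoters in the table, CAGAC in 49.6% and GTCTAGAC in 0.213%. The Bmp4 window held none of the 3 motifs. The Smad6 window held GTCTAGAC across its start site, from position -4 to 4, the Id2 window held GGCGCC at -231 to -226, and the Id3 window held CAGAC at -167 to -163 and GTCTG at -68 to -64. Of the other genes with a window, Bmpr1a, Bmpr2 and Smad5 had GGCGCC in at least one window and Smad1 had none of the motifs. Smad5 also had CAGAC at -21 to -17 in a further window. These matches describe letters in the windows and were not tied to the signals.

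Signals below are the deposited intensities after quantile normalization between arrays, on a linear scale with no unit. Before that step the median signal ran from 11.2 to 13.3 on the KIAA1718 shRNA1 arrays and from 9.59 to 12.9 on the luciferase arrays. Differences are KIAA1718 shRNA1 minus luciferase shRNA on the log2(signal + 16) scale, which understates changes of dim genes, and adjusted p-values come from limma over all 27022 probe sets tested with a threshold of 0.05. Of the 24 probe sets, 22 passed the filter on low signal, and the remaining 2, 1 of Bmpr1a and 1 of Bmpr2, were too dim to be tested. Among the 10 genes, each by its brightest probe set, 2 were lower (Bmp4 and Smad7), none was higher and 8 did not pass. Over the 12740 genes tested, 2.18% were lower, and 4.85% passed in either direction. By probe set the same 2 of 22 were lower, against 1.74% of all probe sets lower, 1.95% higher and 3.69% in either direction. The median difference was -0.038 over the 22 probe sets and 0.0037 over all probe sets tested. At an unadjusted p under 0.05 there were 3 of the 10 genes (Bmp4, Smad7 and Id2), against 22.0% of all genes.

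No tested probe set of the targeted gene passed. Kdm7a had a signal of 42.2, 23.0 and 30.2 with the KIAA1718 shRNA, against 38.5, 37.0 and 39.2 with the luciferase shRNA, a difference of -0.20 ± 0.15 (SE; 95% interval -0.54 to 0.13, limma adjusted p = 0.533). One array with the KIAA1718 shRNA lay above all 3 luciferase arrays and the other 2 below them. The remaining 2 tested probe sets were also below 0, at -0.16 and -0.22 (limma adjusted p of 0.584 and 0.461). The lower of these was dim, at 10.3, 7.24 and 10.7 with the KIAA1718 shRNA, against 18.4, 11.9 and 10.7 with the luciferase shRNA, and its groups just failed to overlap.

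**Figure D1:**
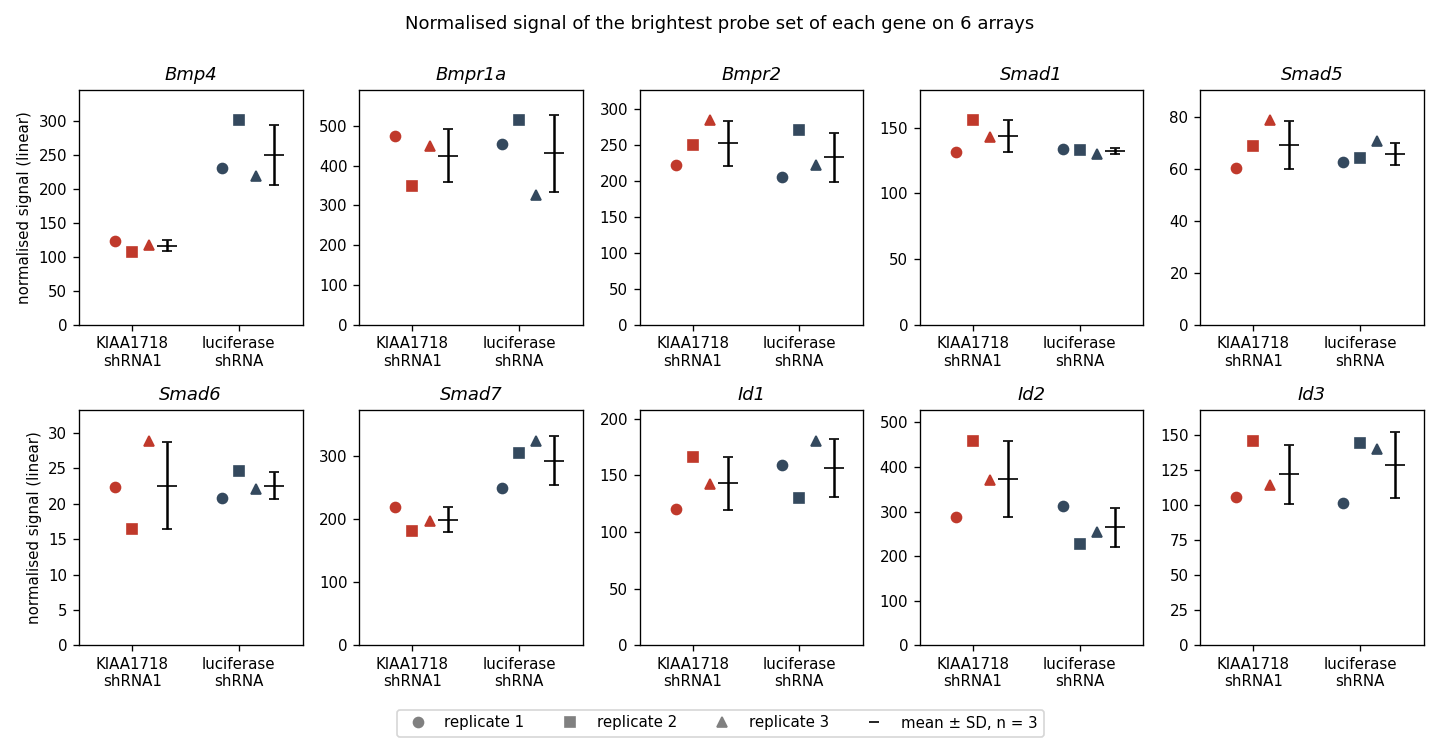
Normalised linear signal (y axis, from 0) of the brightest probe set of each of the 10 genes on the 3 KIAA1718 shRNA1 arrays (red, left) and the 3 luciferase shRNA arrays (dark, right), with the mean and SD of each group in black. The groups are apart for Bmp4 and Smad7 and overlap for the other 8 genes.

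The ligand gene Bmp4, on chromosome 14 and measured by a single probe set, was about halved. Its signal was 124, 107 and 117 on the KIAA1718 shRNA1 arrays, against 230, 301 and 218 on the luciferase arrays. Every KIAA1718 shRNA1 array was below every luciferase array, and the 3 KIAA1718 shRNA1 values lay close together. The means were 116 ± 8.20 with the KIAA1718 shRNA and 250 ± 44.7 with the luciferase shRNA (SD, n = 3 each), a ratio of 0.464, and the log2 difference was -0.998 ± 0.133 (SE; 95% interval -1.29 to -0.71, limma adjusted p = 0.00251). This placed Bmp4 25th from the lowest of 12740 genes. The difference ran from -1.09 to -0.79 over 15 alternative settings, which included leaving out each array, and passed the threshold in all of them. In these bulk samples, fewer cells that express a gene and less RNA per cell cannot be told apart.

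The median difference of the 428 tested genes on chromosome 14 was -0.15, against 0.0011 for all genes, and 8.64% of them were lower past the threshold. Bmp4 lay further down than that median and was the 2nd lowest of the chromosome's genes. Bmpr1a is on the same chromosome. Medians of -0.13 on chromosome 1, which holds Bmpr2, and -0.14 on chromosome 12, which holds Id2, were also below that of all genes, whereas those of the chromosomes of Smad1, Smad5, Smad6, Smad7, Id1 and Id3 lay between 0.011 and 0.062. The part of these chromosome-wide shifts in the results was not tested.

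The receptor genes did not pass the threshold. The brightest Bmpr1a probe set had a signal of 474, 349 and 450 with the KIAA1718 shRNA, against 454, 514 and 325 with the luciferase shRNA, and the groups overlapped fully. Its difference was -0.0084, with a 95% interval of -0.36 to 0.34 (limma adjusted p = 0.987). The other tested Bmpr1a probe sets were all below 0, from -0.50 to -0.14, and 2 of the 4 had groups that did not overlap. The lowest of them had a signal of 91.7, 77.0 and 79.3 with the KIAA1718 shRNA, against 160, 109 and 106 with the luciferase shRNA, a difference of -0.50 ± 0.15 (SE, limma adjusted p = 0.10). It is of a type whose probes can match several transcripts. It passed with the replicate number as a block, at an adjusted p = 0.0362, and with the fibroblast marker level described below as a covariate, at a difference of -0.75 (adjusted p = 0.0294). Without luciferase replicate 1 its difference was -0.33. All but the dimmest of the Bmpr1a probe sets, which was not tested, derive from the same transcript record, and they disagree on the size of the difference. The brightest Bmpr2 probe set read 222, 250 and 284 with the KIAA1718 shRNA, against 205, 271 and 221 with the luciferase shRNA, a difference of 0.11 with an interval of -0.17 to 0.39 (limma adjusted p = 0.706). The second tested Bmpr2 probe set, at 16.4, 16.3 and 16.4 with the KIAA1718 shRNA and 21.8, 16.8 and 20.7 with the luciferase shRNA, differed by -0.14 (limma adjusted p = 0.604), in the opposite direction.

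The signal-carrying Smads also did not pass. Smad1 had a signal of 131, 156 and 143 with the KIAA1718 shRNA, against 134, 133 and 130 with the luciferase shRNA, and its 3 probe sets differed by -0.0038 to 0.18 (limma adjusted p of 0.481 or higher). Smad5, which encodes a close relative of SMAD1, read 60.3, 68.9 and 78.7 with the KIAA1718 shRNA, against 62.5, 64.1 and 70.8 with the luciferase shRNA. The groups of both genes overlapped at the brightest probe set. The 3 Smad5 probe sets differed by 0.056 to 0.35. The highest of these came from the dimmest Smad5 probe set, which had 25.9, 23.0 and 34.1 with the KIAA1718 shRNA, against 18.9, 14.5 and 21.3 with the luciferase shRNA (limma adjusted p = 0.219), and its groups did not overlap. The 95% intervals of the brightest probe sets were -0.14 to 0.35 for Smad1 and -0.22 to 0.34 for Smad5.

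Of the inhibitory Smads, Smad7 was lower and Smad6 did not pass. Smad7 had a signal of 219, 181 and 197 on the KIAA1718 shRNA1 arrays, against 249, 304 and 323 on the luciferase arrays, and the groups did not overlap. The means were 199 ± 19.3 with the KIAA1718 shRNA and 292 ± 38.6 with the luciferase shRNA (SD, n = 3 each), a difference of -0.51 ± 0.12 (SE; 95% interval -0.78 to -0.25, limma adjusted p = 0.0434). A second, dimmer Smad7 probe set read 40.2, 68.7 and 22.2 with the KIAA1718 shRNA and 55.6, 71.1 and 52.9 with the luciferase shRNA, with overlapping groups and a difference of -0.41 (limma adjusted p = 0.378). The call of Smad7 rests close to the threshold: it was lost in 11 of 15 alternatives, in which the adjusted p reached up to 0.355, and kept in 4, among them the replicate number as a block (adjusted p = 0.0318). It was lost without any 1 of KIAA1718 shRNA1 replicates 1, 2 and 3 or luciferase replicates 2 and 3, and over all 6 omissions the difference ran from -0.62 to -0.44. Smad6 was dim, at 22.3, 16.5 and 28.8 with the KIAA1718 shRNA, against 20.8, 24.7 and 22.1 with the luciferase shRNA. Its difference of -0.011 had an interval of -0.33 to 0.31 (limma adjusted p = 0.98), and its sign turned in 5 of 15 alternatives.

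**Figure D2:**
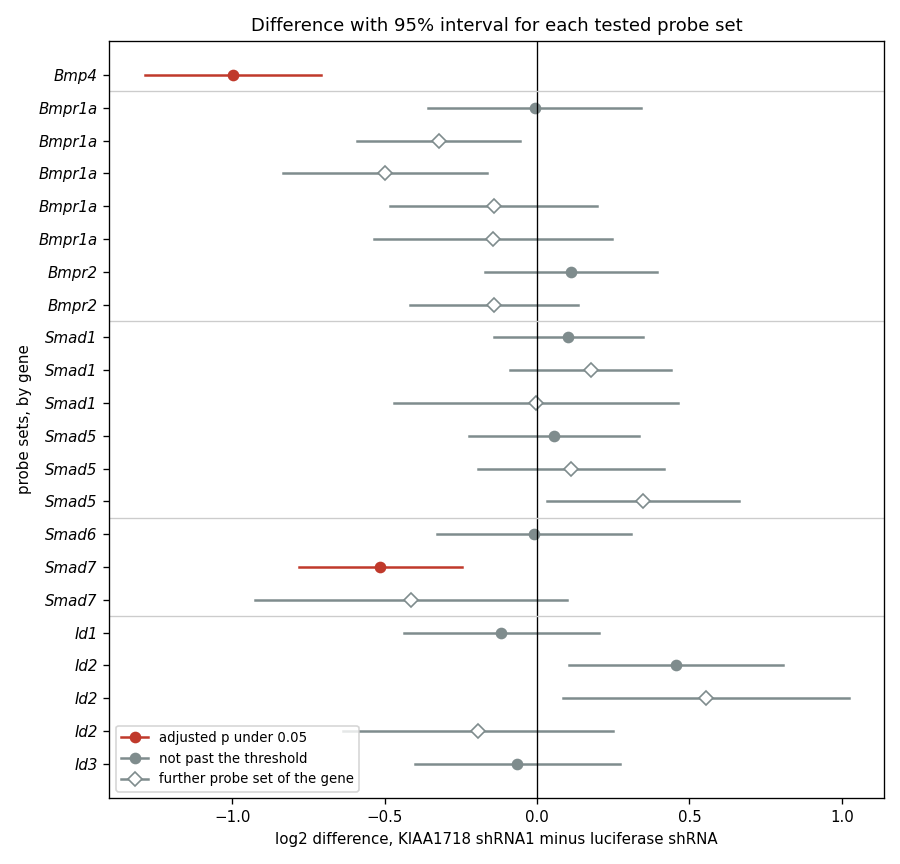
Log2 difference (x axis, KIAA1718 shRNA1 minus luciferase shRNA) with its 95% interval for each of the 22 tested probe sets, ordered from ligand and receptors through signal-carrying and inhibitory Smads to Id genes. Red marks the probe sets of Bmp4 and Smad7 that passed the threshold, filled circles the brightest probe set of a gene and open diamonds further ones.

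The Id genes, the targets most often used as a readout of BMP signalling in these cells, did not pass. Id1 had a signal of 120, 167 and 142 with the KIAA1718 shRNA, against 159, 130 and 180 with the luciferase shRNA. Id3 had 106, 145 and 114 with the KIAA1718 shRNA, against 101, 144 and 140 with the luciferase shRNA. For both genes the groups overlapped. The difference was -0.12 for Id1, with a 95% interval of -0.44 to 0.20 (limma adjusted p = 0.725), and -0.065 for Id3, with an interval of -0.40 to 0.27 (limma adjusted p = 0.869). Both intervals allow decreases as well as increases. Whether Id1 and Id3 follow the difference in Bmp4 was not tested.

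Id2 had values in the opposite direction. Its brightest probe set read 288, 458 and 371 on the KIAA1718 shRNA1 arrays, against 313, 227 and 254 on the luciferase arrays. KIAA1718 shRNA1 replicate 1 lay below luciferase replicate 1, and the other KIAA1718 shRNA1 arrays lay above all luciferase arrays. Means of 373 ± 85.2 with the KIAA1718 shRNA and 265 ± 44.0 with the luciferase shRNA were found (SD, n = 3 each), a difference of 0.46 ± 0.16 (SE; interval 0.10 to 0.81), which did not pass over all probe sets (limma adjusted p = 0.149). A second Id2 probe set, at 56.7, 95.3 and 91.2 with the KIAA1718 shRNA and 72.6, 34.3 and 45.6 with the luciferase shRNA, differed by 0.55 (limma adjusted p = 0.188), and the dimmest one by -0.19 (limma adjusted p = 0.669). Over 14 alternatives the brightest probe set ran from 0.30, without KIAA1718 shRNA1 replicate 2, to 0.62, without KIAA1718 shRNA1 replicate 1, and the mean over the 3 probe sets differed by 0.27. None of these passed, with adjusted p-values from 0.0587 to 0.397. Whether Id2 differs from Id1 and Id3 in its response was not tested. Id4, the remaining Id gene, which was named after its values were seen, differed by 0.039 (limma adjusted p = 0.913).

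**Figure D3:**
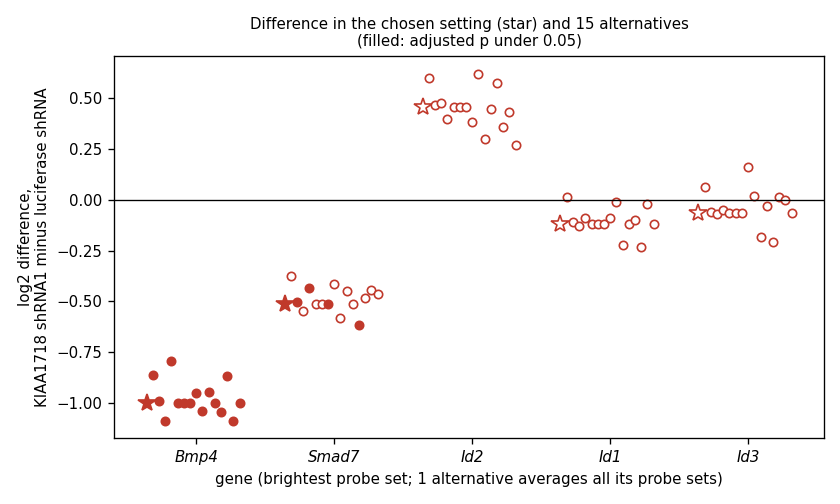
Log2 difference (y axis, KIAA1718 shRNA1 minus luciferase shRNA) of 5 genes in the chosen setting (star) and in 15 alternative settings (circles), by the brightest probe set except in the 1 alternative that averages the tested probe sets of a gene, filled where the adjusted p was under 0.05. Bmp4 passed in every setting shown, Smad7 in the chosen one and 4 others, and Id2, Id1 and Id3 in none.

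Across the 22 tested probe sets, 14 were below 0 and 8 above, and 6 had groups that did not overlap, against 24.3% of all probe sets tested. Those 6 were the brightest probe sets of Bmp4 and Smad7, 2 of Bmpr1a, the dimmer tested one of Bmpr2 and the dimmest one of Smad5.

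The other genes of the pathway were taken from lists of ligands, receptors, Smads, extracellular antagonists, ligand-processing enzymes, intracellular regulators, targets and partners of the Id proteins. Of 89 listed genes 85 were on the array and 70 were tested; 5 were lower, none was higher and 65 did not pass, against 2.18% lower and 2.67% higher among all genes. Their median difference was 0.022, against 0.0011 for all genes. The lists were chosen with earlier results of these data known, so these counts are a description and enrichment was not tested.

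The 3 pathway genes that moved furthest were in the list of targets, also chosen with those earlier results known. In it 3 of 13 were lower and none was higher. Tbx3, a T-box transcription factor gene of naive stem cells, had 85.5, 75.0 and 54.7 with the KIAA1718 shRNA, against 217, 266 and 281 with the luciferase shRNA (difference -1.63 ± 0.15, SE, limma adjusted p = 0.000344). The next brightest Tbx3 probe set was also lower, at -1.33 (limma adjusted p = 0.00159). The dimmer ones tested, at -0.84 and -0.23, did not pass (limma adjusted p of 0.0739 and 0.407). Dusp9, which encodes a phosphatase of ERK and is a known BMP4 target in mouse embryonic stem cells, had 111, 91.9 and 99.2 with the KIAA1718 shRNA, against 222, 207 and 262 with the luciferase shRNA (difference -1.07 ± 0.12, SE, limma adjusted p = 0.0012). All 3 Dusp9 probe sets were lower, with differences of -1.11 to -0.74. Prdm14, a regulator of pluripotency and of germ cell precursors, which form in the mouse embryo in response to BMP4, had 92.9, 86.1 and 87.3 with the KIAA1718 shRNA, against 148, 205 and 185 with the luciferase shRNA (difference -0.89 ± 0.13, SE, limma adjusted p = 0.00443). By its brightest probe set, each of these 3 genes had groups that did not overlap and passed in all 14 alternatives. They are also genes of the naive stem cell state or of ERK control, and BMP signalling is one of several inputs known for them.

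Among 6 ligand-processing enzyme genes, Pcsk6, which encodes a proprotein convertase, fell to 61.8, 49.6 and 56.1 with the KIAA1718 shRNA, against 90.6, 89.0 and 92.3 with the luciferase shRNA (difference -0.57, limma adjusted p = 0.0257). Among 18 intracellular regulators, Zfp423, whose zinc-finger product works with Smads on BMP targets, fell to 147 on each of the KIAA1718 shRNA1 arrays, against 228, 236 and 217 with the luciferase shRNA (difference -0.58, limma adjusted p = 0.0121). Pcsk6 lost its call in 8 of 14 alternatives, among them the omission of any 1 array other than KIAA1718 shRNA1 replicate 1, with adjusted p-values up to 0.236. Zfp423 lost its call in 4, among them the omission of KIAA1718 shRNA1 replicate 3 or luciferase replicate 3, with adjusted p-values up to 0.234.

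No gene passed among 8 other ligands, 10 other receptors and co-receptors, 3 other Smads, 9 extracellular antagonists and 3 Id partners. The smallest p-values among the ligands belonged to Bmp2, at a difference of 0.46 (limma adjusted p = 0.209), and Bmp8b, at 0.37 (limma adjusted p = 0.231). Both were dim, with mean signals of 14.4 ± 4.53 and 21.5 ± 1.27 with the KIAA1718 shRNA and 6.36 ± 4.88 and 13.4 ± 6.24 with the luciferase shRNA (SD, n = 3 each). The filter kept probe sets with a mean deposited signal over the 6 arrays of 6.65 or more. On the luciferase arrays the deposited Bmp2 signals were 0.633, 7.33 and 10.7, so Bmp2 passed the filter only through the KIAA1718 shRNA1 arrays. The Bmp2 difference is therefore only a description. Without luciferase replicate 1, whose Bmp2 signal was only 0.738, Bmp2 differed by 0.26. With a pseudocount of 1 the difference was 1.40 for Bmp2 and 0.72 for Bmp8b, and with a pseudocount of 64 it was 0.16 and 0.15. A second Bmp8b probe set differed by 0.17 (limma adjusted p = 0.533). In the receptor list the smallest p-values belonged to the type II receptor gene Acvr2a at 0.33 and the co-receptor gene Rgmb at 0.26 (limma adjusted p of 0.205 and 0.309). A second Acvr2a probe set differed by only 0.037 (limma adjusted p = 0.915), and the dimmer tested Rgmb probe sets by -0.10 to 0.10. In the Smad list the smallest p-values belonged to Smad2 at -0.18 and Smad3 at -0.13, which encode the carriers of activin and TGF-beta signals (limma adjusted p of 0.383 and 0.65). A second Smad2 probe set differed by -0.010, and the dimmer Smad3 ones by -0.097 and -0.048. Among the antagonists the smallest p-values belonged to Chrd at 0.35 and Fst at 0.41, which encode the extracellular binding proteins chordin and follistatin (limma adjusted p of 0.314 and 0.336). Without luciferase replicate 2, Chrd differed by 0.54, and with pseudocounts of 1 and 64 it differed by 0.97 and 0.12. Deposited Chrd signals on the luciferase arrays were 2.91, 10.9 and 4.77, so Chrd too passed the filter only through the KIAA1718 shRNA1 arrays. The Chrd difference is likewise only a description. Fst ran from 0.19, without luciferase replicate 1, to 0.64, without KIAA1718 shRNA1 replicate 1. It passed, at 0.83, with the fibroblast marker level as a covariate (adjusted p = 0.0394). A second Fst probe set differed by 0.53 (limma adjusted p = 0.18). The Id partner genes Tcf4 and Tcf12, which encode basic helix-loop-helix E proteins, differed by 0.29 and 0.25 (limma adjusted p of 0.188 and 0.292). Without KIAA1718 shRNA1 replicate 2, Tcf12 differed by 0.15. The dimmer or further tested Tcf4 probe sets differed by -0.11 to 0.46 (limma adjusted p of 0.109 or higher). Those of Tcf12 differed by -0.22 to 0.19 (limma adjusted p of 0.558 or higher).

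**Figure D4:**
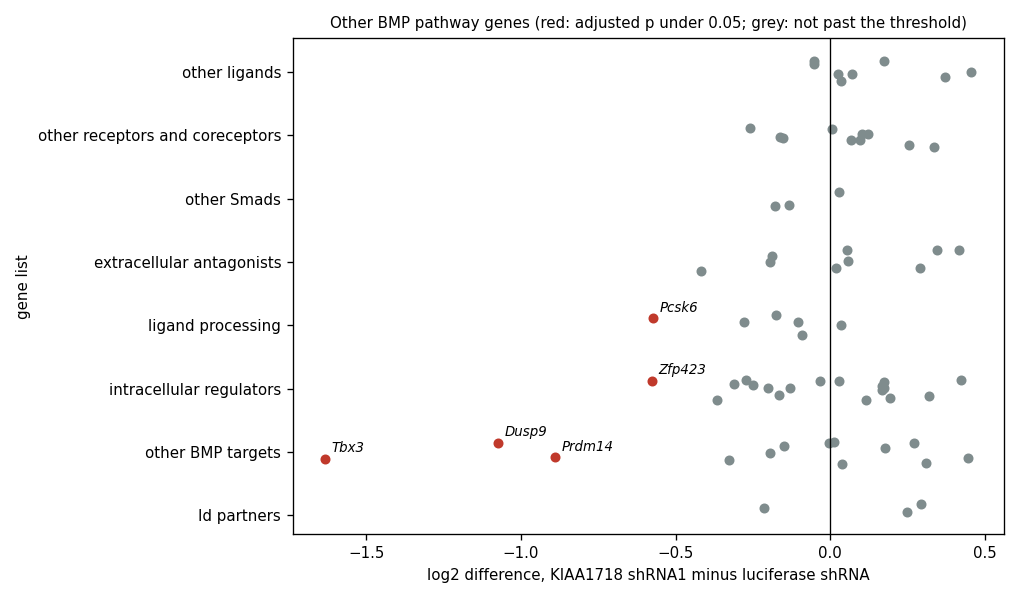
Log2 difference (x axis, KIAA1718 shRNA1 minus luciferase shRNA) of the other tested BMP pathway genes, 1 point per gene in each of 8 lists (y axis). The 5 named genes in red were lower with an adjusted p under 0.05, and the grey genes did not pass.

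Markers of embryonic fibroblasts, which are often used as feeder cells for embryonic stem cells and also express BMP pathway genes, varied between arrays. Which cells the marker signal came from was not tested. The mean of the 34 markers (log2 scale) was 7.12, 7.41 and 7.47 on the KIAA1718 shRNA1 arrays, against 7.23, 7.98 and 7.94 on the luciferase arrays, and the summed signal ran from 10697 to 14023 on the KIAA1718 shRNA1 arrays and from 11078 to 18897 on the luciferase arrays. Of the 34, 31 were below 0 and 1, Pdgfra, was lower past the threshold, and all 34 had enough signal to be tested. Luciferase replicates 2 and 3 had marker levels above all KIAA1718 shRNA1 arrays, so a comparison at a like level rests on 1 array. Luciferase replicate 1 had a marker level within the range of the KIAA1718 shRNA1 arrays, and its Bmp4 signal of 230 was above their 107 to 124. Its Smad7 signal of 249 was likewise above their 181 to 219, whereas its Id3 signal of 101 was just below their 106 to 145. Its Id2 signal of 313 lay within their 288 to 458. The marker level partly follows the group, so a fit with it as a covariate cannot fully separate them. In that fit the Bmp4 difference was -0.95 (limma adjusted p = 0.0194). That of Smad7 was -0.42 and did not pass (limma adjusted p = 0.224), and that of Id3 was 0.16 (limma adjusted p = 0.69). The Id2 difference was 0.38 (limma adjusted p = 0.397), and the dimmer Id2 probe sets were at 0.37 and -0.48 (limma adjusted p of 0.532 and 0.298). The calls of Tbx3, Dusp9 and Prdm14 were kept and those of Pcsk6 and Zfp423 lost, at -0.60 and -0.58. Of 15 tested primitive endoderm markers 5 were lower and 10 did not pass, and 14 were below 0. Pdgfra, the only fibroblast marker that passed, and Sparc are in this list as well, so the lists of fibroblast and primitive endoderm markers share genes. Of 8 tested trophectoderm markers 2 were higher and 6 did not pass, and all 8 were above 0. Of 10 embryonic stem cell markers, all bright enough to be tested, 2 were lower and 8 did not pass, and 9 were below 0, with a median of -0.16. Over all genes 2.18% were lower and 2.67% higher. The part of the fibroblast markers and of these other lists in the results was not tested.

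**Figure D5:**
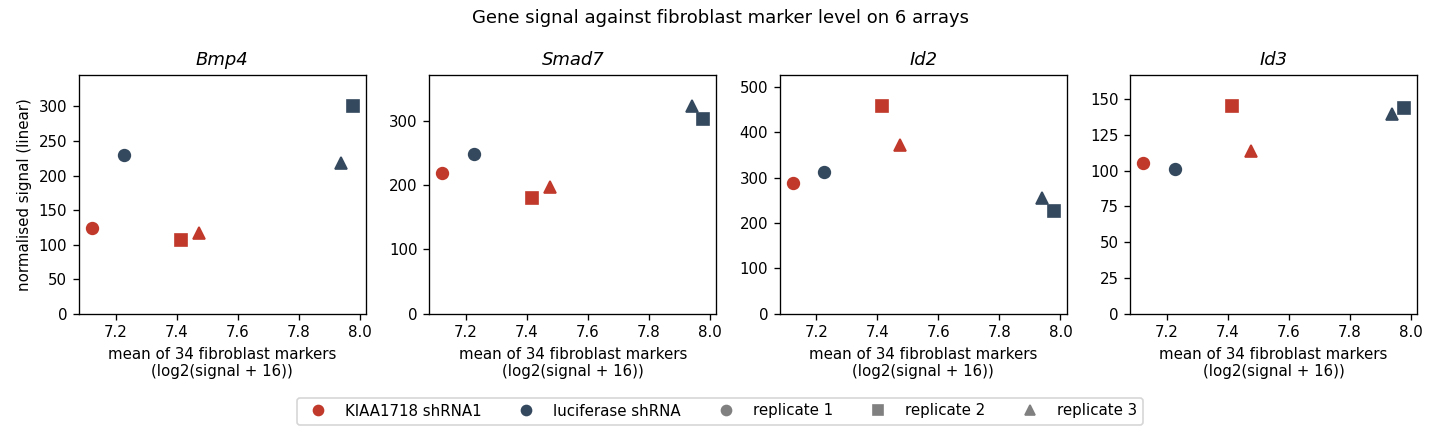
Normalised linear signal (y axis, from 0) of Bmp4, Smad7, Id2 and Id3 against the mean of 34 fibroblast markers (x axis, log2(signal + 16)) on each of the 6 arrays, red for KIAA1718 shRNA1 and dark for luciferase shRNA. At a marker level like that of the KIAA1718 shRNA1 arrays, luciferase replicate 1 has a Bmp4 signal of 230, against 107 to 124. Luciferase replicates 2 and 3 have marker levels above all KIAA1718 shRNA1 arrays.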

How the data were processed

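RNA from 6 samples was measured on Affymetrix arrays, and the authors deposited 1 linear signal intensity per probe set and array. The software named is GCOS, per the submitters' processing notes, without a version or algorithm. Their scale differed between arrays (means of 61.5 to 81.5 after trimming 2% at each end), so arrays were quantile normalized, 16 was added and log2 taken. The 64 controls and the dimmest 40% of the other probe sets were dropped. In R 4.3.3, limma 3.58.1 (eBayes with trend) gave two-sided p-values, adjusted by Benjamini-Hochberg over 27022 probe sets. The number of arrays limits the precision. The procedure was tested on simulated data with independent noise on each array, so that test does not cover arrays that form pairs.

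Each gene was represented by its brightest probe set, and symbols were updated by Entrez number with RefSeq (GRCm38.p6), which 99.4% of probe sets with 1 symbol matched. Members, gene lists and settings were chosen with earlier results of these data known. The genes named are the 10 members, Kdm7a, every pathway gene past the threshold, the 2 with the smallest p in a list where none passed, and the 5 nearest to Bmp4. Pdgfra and Id4 were named after their values were seen.

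Both groups use the replicate numbers 1 to 3. Same-numbered arrays deviated together from their group means, with correlations of 0.202, 0.124 and 0.129, against -0.15 to 0.025 for other pairs. All being over 0.1, the numbers may mark pairs, which rests on the data alone. The main fit has no replicate block, so its intervals, p-values and calls ignore such pairs. The block is an alternative, and its values appear beside results whose call it changes. In every pair of arrays at least 45100 probe sets had different values. Alternatives changed the normalization, pseudocount, filter, trend, block, a fibroblast covariate, the arrays included and the choice of probe set.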

Additional observations from a re-analysis of the deposited data

How the results depend on the processing

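Without normalization between arrays, 1 of the BMP probe sets (Bmp4), 3 pathway genes and 583 of all probe sets passed, against 2, 5 and 997 in the chosen setting. Of those calls 81.5% were higher, against 52.9%, and the median of all genes was 0.11. Bmpr1a at 0.13, Smad6 at 0.092, Id1 at 0.016 and Id3 at 0.062 were then above 0, and the last 3 of these lay below that median. With scaling to 1 trimmed mean Smad6 was at 0.010, and with the fibroblast covariate it was at 0.043, Id3 at 0.16 and Smad3 at 0.0062. Bmpr2 averaged over its probe sets was at -0.015. None of these values passed. The count of BMP probe sets was also 1 with a pseudocount of 1, with no filter and with no trend. All probe sets passing numbered 290 with no filter, 626 with no trend, 317 with the fibroblast covariate and 1667 with the replicate number as a block. The block added the lowest Bmpr1a probe set and ended no call among the BMP genes or the 5 pathway genes; the covariate also added it, and removed Smad7. Leaving out 1 array gave 1 to 2 BMP probe sets, 3 to 5 pathway genes and 251 to 823 probe sets in all. Leaving out 1 array, Bmpr1a ran from -0.19 to 0.13, Bmpr2 from 0.026 to 0.22, Smad1 from 0.046 to 0.16, Smad5 from -0.023 to 0.13, Smad6 from -0.13 to 0.11, Id1 from -0.23 to -0.010, Smad3 from -0.24 to -0.052, Id3 from -0.21 to 0.019 and Kdm7a from -0.35 to -0.065. The causes were not tested. Signal over background could not be judged for the dim Smad6, Bmp2 and Chrd, since detection calls were not used here.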

Other observations

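The 5 genes whose signals over the 6 arrays lay nearest to those of Bmp4 were Plcb3, Srgn, Prdm14, Kbtbd11 and Porcn. Nearness was the root-mean-square distance of log2 values relative to the luciferase mean, over 12739 other genes, and ran from 0.12 for Plcb3 to 0.14 for Porcn. All 5 were lower with the KIAA1718 shRNA, with differences of -1.08 to -0.87, and none is on chromosome 14. Plcb3 is on chromosome 19 and Prdm14 on chromosome 1, whose tested genes had median differences of -0.14 and -0.13. Plcb3, which encodes a phospholipase C, had 35.4, 26.0 and 26.9 with the KIAA1718 shRNA, against 63.3, 88.7 and 51.8 with the luciferase shRNA. Srgn, the gene of the proteoglycan serglycin, had 30.4, 24.9 and 29.6 with the KIAA1718 shRNA, against 62.8, 87.8 and 81.6 with the luciferase shRNA. Porcn, which encodes the enzyme that adds a lipid to Wnt proteins, had 72.6, 53.6 and 49.2 with the KIAA1718 shRNA, against 113, 142 and 129 with the luciferase shRNA. The genes were picked for this likeness, so these values are a description without a test.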
